A study of Mus musculus with 12 samples.

Results

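The 9 genes described here encode enzymes and 1 transporter that supply docosahexaenoic acid (DHA) and very long chain polyunsaturated fatty acids to membrane lipids: the elongases Elovl2, Elovl4 and Elovl5, the desaturases Fads1 and Fads2, the acyl-CoA synthetase Acsl6, the acyltransferases Lpcat1 and Agpat3, and the lipid transporter Mfsd2a. They were taken by gene symbol from a table of 56748 genes, and each symbol had 1 entry. RNA was sequenced from rod ribosomes (Rod-TRAP, called rods here) and from whole retinal lysate (input, called retina here) of mice with and without Pkm2 in rods. There were 3 libraries in each of 4 groups, with between 13458890 and 22790074 reads per library.

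Control mice (genotype Pkm2_Rodhet) carried 1 floxed and 1 wild-type Pkm2 allele, and Pkm2_Rodko mice carried 2 floxed alleles. Both genotypes carried the i75 rod-specific Cre transgene and were homozygous for RiboTag, an allele that puts an HA epitope on a ribosomal protein after Cre has acted. The controls are therefore heterozygous for Pkm2 in rods, and no Cre-negative mice were compared. Tissue came from animals perfused with cycloheximide, which holds ribosomes on mRNA, and were flash-frozen. The series description gives an age of 2 weeks and the methods 2 months. The labels do not say whether a library is 1 animal or a pool, so the p-values measure the spread between these libraries.

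DHA is the main polyunsaturated fatty acid of the membrane discs in photoreceptor outer segments. It is made from shorter dietary omega-3 fatty acids by alternating desaturation (FADS2, FADS1) and elongation (ELOVL5, ELOVL2) in the endoplasmic reticulum, followed by a round of chain shortening in peroxisomes, or it is taken up ready-made from the blood. ELOVL4 extends such fatty acids to the very long chain forms typical of photoreceptors, and acyl-CoA synthetases and acyltransferases then place them in phospholipids.

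Of the 9 mRNAs, 5 were higher in rods than in retina and 4 were lower, in both genotypes. Over all genes tested, 23.5% were higher and 35.5% lower in control mice, and 23.9% and 35.1% in Pkm2_Rodko mice. Among genes with 10 reads in every library, the control shares were 45.8% and 28.0%. Elovl4, Agpat3, Elovl2, Lpcat1 and Acsl6 were higher in rods, and Elovl5, Mfsd2a, Fads1 and Fads2 were lower. Among the members, the 2 elongases of longer substrates, Acsl6, Lpcat1 and Agpat3 were thus on one side. Both desaturases, Elovl5 and the transporter were on the other. Other listed genes of activation and assembly went both ways in control mice. Of the acyl-CoA synthetases 2 were higher and 3 lower, and of the acyltransferases 5 were higher and 8 lower. No member passed the test between genotypes, in rods or in retina.

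The promoters of 3 members are shown because the data separate them: Elovl4 was the member most raised in rods, Elovl5 the most lowered, and Lpcat1 the only member whose promoter held one of the 2 rod motifs searched. Sequences are from RefSeq on GRCm38.p6 and stop before the first annotated exon (chr9:83806306-83806555, minus strand; chr13:73466981-73467196, plus strand; chr9:77917115-77917363, plus strand). Capitals mark the match.
Elovl4: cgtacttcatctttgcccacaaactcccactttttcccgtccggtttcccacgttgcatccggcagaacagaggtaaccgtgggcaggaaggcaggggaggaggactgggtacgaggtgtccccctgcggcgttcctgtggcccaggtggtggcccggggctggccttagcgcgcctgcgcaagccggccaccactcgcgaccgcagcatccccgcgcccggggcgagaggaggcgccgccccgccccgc
Lpcat1: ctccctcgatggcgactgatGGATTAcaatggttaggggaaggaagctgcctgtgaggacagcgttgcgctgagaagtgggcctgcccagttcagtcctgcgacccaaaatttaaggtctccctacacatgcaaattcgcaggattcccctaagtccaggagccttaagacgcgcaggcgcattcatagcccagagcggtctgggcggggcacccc
Elovl5: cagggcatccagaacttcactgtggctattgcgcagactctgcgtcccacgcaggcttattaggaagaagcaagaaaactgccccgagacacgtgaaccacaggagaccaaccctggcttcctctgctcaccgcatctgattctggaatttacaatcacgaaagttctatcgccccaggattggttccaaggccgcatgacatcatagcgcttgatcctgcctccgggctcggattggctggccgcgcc

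RefSeq gave 11 promoter windows of 250 bases for 8 of the 9 members, all but Fads1. The core bound by the photoreceptor factor CRX (TAATCC, or GGATTA on the other strand) was found in the Lpcat1 window alone. It starts 230 bases before the RefSeq transcription start at the end of that window. The printed sequence stops short of that point, where the first annotated exon begins. Of 32851 mouse promoter windows of the same length, 6.25% hold the core. The letters TGCTGA, part of the element bound by the rod factor NRL, or TCAGCA on the other strand, were in none of the 11 windows and in 16.1% of all windows. Elovl4 and Elovl5 lie on chromosome 9 with Pkm, 24.1 and 18.2 Mb from it on GRCm38. Fads1 and Fads2 share chromosome 19, Elovl2 and Lpcat1 share chromosome 13, and Acsl6, Agpat3 and Mfsd2a are on chromosomes 11, 10 and 4.

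Pkm, the targeted gene, was counted 40688, 69974 and 44227 times in control rods and 23429, 21040 and 28084 times in Pkm2_Rodko rods. In retina it had 32021, 32121 and 36778 reads in controls and 19060, 22478 and 18501 in Pkm2_Rodko mice. Its log2 fold change was -1.20 in rods (standard error 0.0838, adjusted p = 5.36e-05, limma with Benjamini-Hochberg adjustment). These reads are of the whole gene and do not separate its isoforms Pkm1 and Pkm2. The paper reports a lower Pkm2 and a higher Pkm1 level in Pkm2_Rodko rods. All 20 rod markers tested, such as Gnat1 and Pde6b, were higher in rods than in retina of control mice, by log2 0.92 to 2.11. All 12 Müller glia markers were lower, by log2 -3.69 to -2.26, as were all 10 pigment epithelium and all 10 endothelial markers. All tested markers of amacrine, ganglion and horizontal cells and microglia were lower too. Of the cone markers 11 of 12 were lower, and of the bipolar markers 8 of 10, with Otx2 higher (0.89). None of the markers of 10 cell types was at 0 in every rod library, so the rod libraries also held reads of these genes. In bulk samples, fewer cells of a type and less RNA per cell cannot be told apart.

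To compare the fractions, the reads were put on 1 scale over all 12 libraries by TMM (the trimmed mean of M-values), and are given as reads per library of 18053681 effective reads, called scaled reads. Elovl4, the elongase that is mutated in a dominant Stargardt-like macular dystrophy, had 26478, 26740 and 23576 scaled reads in control rods and 8017, 8365 and 6981 in control retina. The lowest rod library was far above the highest retina library. The log2 fold change was 1.72 (standard error 0.0822, adjusted p = 1.56e-10, limma), a 3.29-fold difference, and only 169 of 25584 genes tested had a larger one. In Pkm2_Rodko mice the value was 1.77 (standard error 0.0822).

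Elovl2, which makes the precursor of DHA, had 3995, 3974 and 4011 scaled reads in control rods and 1452, 1640 and 1455 in control retina. The 3 rod libraries were nearly equal, and the groups did not overlap. The log2 fold change was 1.40 (standard error 0.0785, adjusted p = 6.63e-10, limma), and in Pkm2_Rodko mice it was 1.35.

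Elovl5, which elongates the shorter intermediates earlier in the pathway, moved the other way. It had 75.3, 79.1 and 63.6 scaled reads in control rods and 584, 525 and 569 in control retina, from 40 to 85 raw reads per control rod library. Its retina level was 7.63-fold the rod level (log2 fold change -2.93, standard error 0.170, adjusted p = 9.03e-10, limma). In Pkm2_Rodko mice the value was -3.28. Both values lay inside the marker ranges of 8 of 10 cell types in the same comparisons, namely Müller glia, pigment epithelium, endothelial, bipolar, amacrine, ganglion and horizontal cells and microglia, and outside those of rods and cones. The part of these cells in the Elovl5 values was not tested. Some of the ranges were wide. In control mice, bipolar markers ran from -3.69 to 0.89 and endothelial markers from -4.58 to -0.78. Both ranges also held the control values of Mfsd2a (-2.19), Fads1 (-1.97) and Fads2 (-1.28).

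Both desaturases were lower in rods, by less than Elovl5. Fads1, the delta-5 desaturase, had 301, 381 and 318 scaled reads in control rods and 1376, 1137 and 1403 in control retina (log2 fold change -1.97, standard error 0.118, adjusted p = 1.27e-09, limma). Fads2, the delta-6 desaturase that opens the pathway, had 476, 986 and 445 scaled reads in control rods and 1550, 1527 and 1265 in control retina. The second rod library stood about midway between the other rod libraries and the retina, and the groups still did not overlap. The log2 fold change was -1.28 (standard error 0.243, adjusted p = 0.000296, limma) in control mice and -1.05 (standard error 0.243, adjusted p = 0.00149) in Pkm2_Rodko mice.

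**Figure D1:**
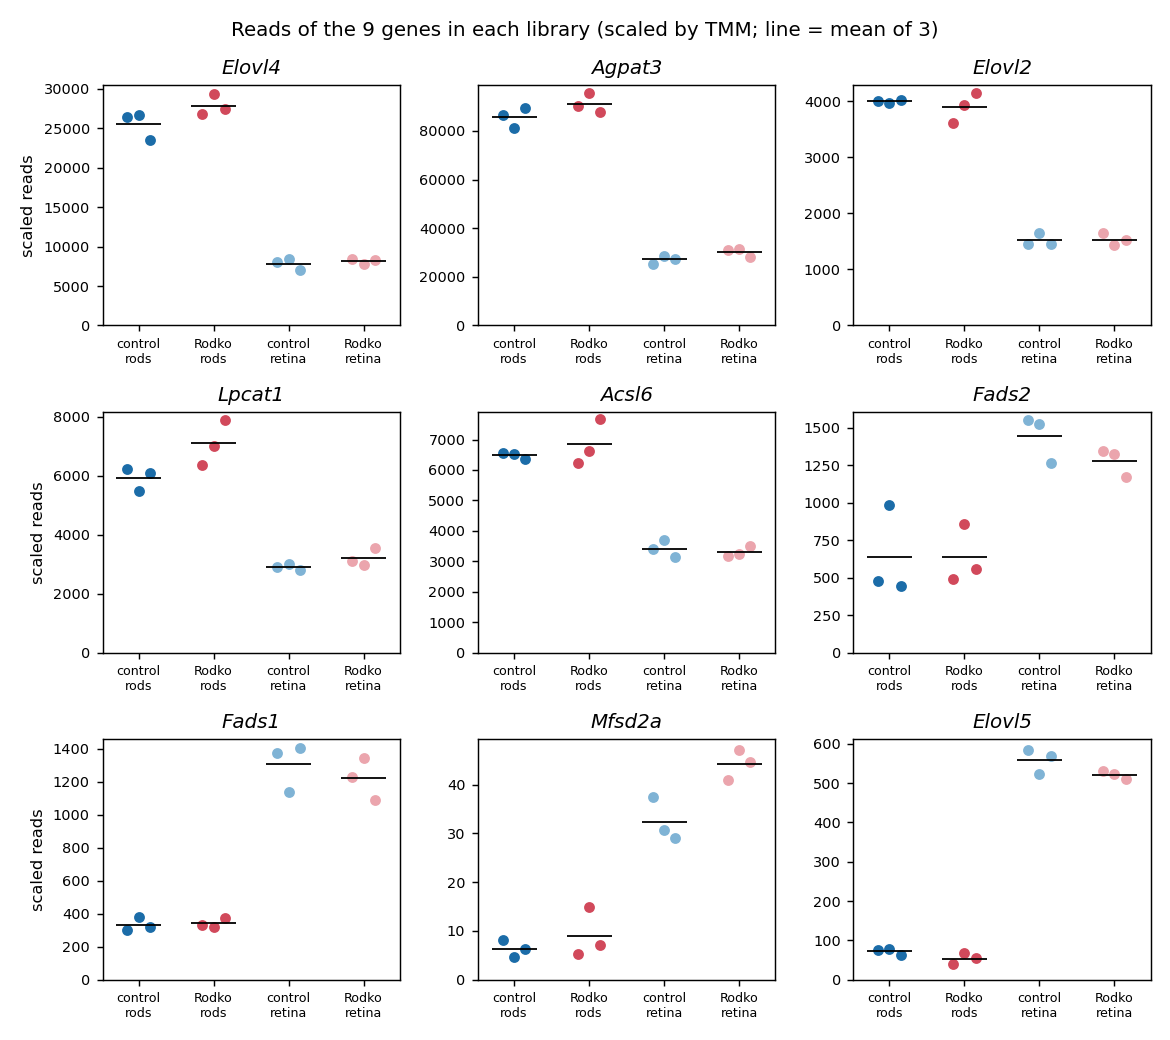
Scaled reads (vertical axes, linear from 0, TMM over all 12 libraries) of the 9 genes in each library; points are the 3 libraries of a group in replicate order and lines are their means. In each panel the rod points and the retina points do not overlap, with the rods above in the first 5 panels (Elovl4 to Acsl6) and below in the last 4 (Fads2 to Elovl5).

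Acsl6, an acyl-CoA synthetase that activates DHA, had 6549, 6532 and 6349 scaled reads in control rods and 3416, 3704 and 3137 in control retina. Rods were 1.90-fold higher (log2 fold change 0.92, standard error 0.0846, adjusted p = 1.41e-07, limma). Its difference was the smallest of the 5 raised members in control mice, and in Pkm2_Rodko mice it was 1.04.

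Agpat3, an acyltransferase that places DHA in phosphatidic acid, was the most abundant member. It had 86597, 81070 and 89344 scaled reads in control rods and 25331, 28696 and 27531 in control retina. The log2 fold change was 1.66 (standard error 0.0837, adjusted p = 2.51e-10, limma) in control mice and 1.59 in Pkm2_Rodko mice. Lpcat1, a lysophosphatidylcholine acyltransferase whose loss causes photoreceptor degeneration in mice, had 6236, 5467 and 6099 scaled reads in control rods and 2900, 3021 and 2818 in control retina. The log2 difference was 1.02 (standard error 0.0899, adjusted p = 8.78e-08, limma) in control mice and 1.15 in Pkm2_Rodko mice.

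Mfsd2a, the transporter of DHA as lysophosphatidylcholine at the blood-retina barrier and in pigment epithelium, was close to the limit of detection in rods. Its raw reads were 5, 5 and 4 in control rods, 4, 11 and 7 in Pkm2_Rodko rods, 45, 34 and 40 in control retina, and 46, 62 and 47 in Pkm2_Rodko retina. The rod libraries were all below the retina libraries (log2 fold change -2.19 in control mice, standard error 0.391, adjusted p = 0.000170, limma, and -2.28 in Pkm2_Rodko mice). The value is on a log2(scaled reads + 1) scale, which understates the change of so low a gene. The 10 pigment epithelium markers summed to 7081, 1654 and 10848 scaled reads in the control retina libraries and to 327 to 1776 in control rods. The 10 endothelial markers summed to 4225, 3769 and 3624 in the same retina libraries and to 478 to 653 in control rods. Mfsd2a had 37.4, 30.6 and 29.0 scaled reads in those retina libraries, and the part of either cell type was not tested.

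In control mice, 5 of 9 members were higher in rods, where 23.5% of the 25584 genes tested were, and 4 of 9 were lower, where 35.5% of all genes were. In Pkm2_Rodko mice the same counts stood beside 23.9% higher and 35.1% lower. The members' median log2 difference was 0.92 in control mice, against -0.37 over all genes tested. These shares depend on the filter. Of the 12918 genes with 10 reads in every library, a filter that Mfsd2a did not pass, 45.8% were higher and 28.0% lower in control mice. The median of those genes was 0.24. All 9 had rod and retina libraries that did not overlap in either genotype, as did 61.8% of all genes tested in control mice and 63% in Pkm2_Rodko mice. The control and Pkm2_Rodko comparisons share no library, and each member had the same sign in both.

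The size of these differences rests on the scaling. Scaled by total reads, all members kept their direction and passed the test, but Acsl6 fell from 0.92 to 0.37, Lpcat1 from 1.02 to 0.47, Elovl2 from 1.40 to 0.85, Agpat3 from 1.66 to 1.11 and Elovl4 from 1.72 to 1.17 in control mice. The split over all genes moved from 6001 higher and 9083 lower with TMM to 2184 higher and 12706 lower, as the median of all genes moved from -0.37 to -0.76.

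**Figure D2:**
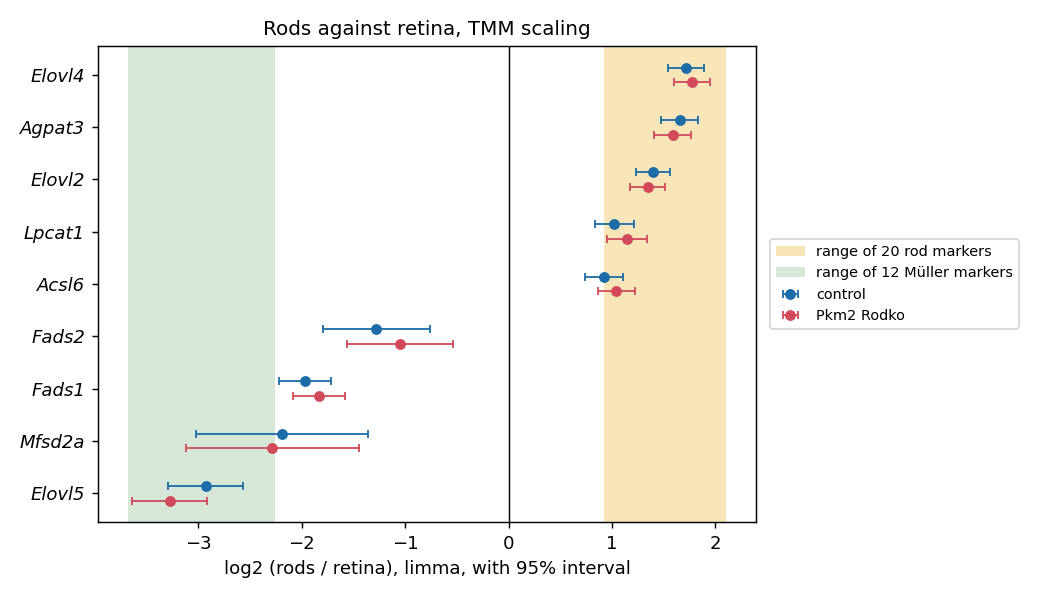
Log2 ratio of rods to retina for the 9 genes (limma on log2(scaled reads + 1), points with 95% intervals, control in blue and Pkm2_Rodko in red); shaded bands are the ranges of 20 rod markers (0.92 to 2.11) and 12 Müller glia markers (-3.69 to -2.26) in control mice. In control mice, the 5 raised genes lie between 0.92 and 1.72 and the 4 lowered genes between -2.93 and -1.28.

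Levels were compared between genes only per length, as TPM, reads divided by the union length of each gene's exons and scaled to a fixed total per library. In control rods the order was Agpat3 (1926 ± 36.6 TPM, SD, n = 3), Elovl4 (1485 ± 138), Lpcat1 (224 ± 9.59), Elovl2 (176 ± 4.71), Acsl6 (115 ± 5.02), Fads2 (34.2 ± 17.5), Fads1 (12.2 ± 1.93), Elovl5 (3.62 ± 0.498) and Mfsd2a (0.496 ± 0.128). No neighbours in this order overlapped in their libraries. With the length of the longest transcript in place of the exon union, Acsl6 (152 ± 6.75 TPM) stood above Elovl2 (141 ± 3.88). Agpat3 ranked 45 and Elovl4 ranked 66 by TPM among the genes of control rods, of which 14200 reached 1 TPM.

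In control retina the order was Agpat3 (706 ± 66.1 TPM), Elovl4 (520 ± 57.2), Lpcat1 (127 ± 7.98), Fads2 (88.7 ± 10.3), Elovl2 (77.3 ± 7.95), Acsl6 (69.7 ± 7.51), Fads1 (54.7 ± 4.74), Elovl5 (32.0 ± 0.796) and Mfsd2a (2.90 ± 0.340). Fads2 overlapped with Elovl2, and Elovl2 with Acsl6. With the longest transcript, Acsl6 (98.7 ± 10.1 TPM) stood above Fads2 (76.9 ± 8.73) and Elovl2 (66.2 ± 6.44). The members thus spread less in retina: the TPM ratio of Elovl4 to Elovl5 was 411 ± 19.0 (SD, n = 3) in control rods and 16.3 ± 2.16 in control retina, and that of Elovl2 to Elovl5 was 49.2 ± 5.99 and 2.42 ± 0.312. In Pkm2_Rodko mice the first ratio was 626 ± 153 in rods and 18.2 ± 0.738 in retina.

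Within its gene family, each raised member except Elovl2 took a larger share of the summed TPM in rods. Elovl4 was 88.6% ± 0.718 of the Elovl family in control rods and 76.2% ± 1.42 in control retina (SD, n = 3). Elovl5 was 0.216% ± 0.0115 and 4.73% ± 0.537, and Elovl2 was 10.6% and 11.3%, with overlapping libraries. Elovl3 had no read in any library.

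Acsl6 rose from 20.6% ± 1.11 of the Acsl family in control retina to 40.8% ± 1.43 in control rods, where it overtook Acsl3 (63.2% in retina, 37.1% in rods). Agpat3 was 93.8% ± 0.173 of its family in rods and 83.8% ± 1.65 in retina, and Lpcat1 75.7% ± 0.641 and 69.5% ± 0.502. Fads2 was 68.3% ± 7.82 of the Fads family in rods and 55.0% ± 5.30 in retina, although its level was lower in rods. The libraries of the 2 fractions did not overlap in the shares of Elovl4, Elovl5, Acsl6, Agpat3, Lpcat1, Fads1 and Fads2 (exact permutation tests, two-sided, p = 0.1 each; 3 libraries against 3 cannot give less).

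**Figure D3:**
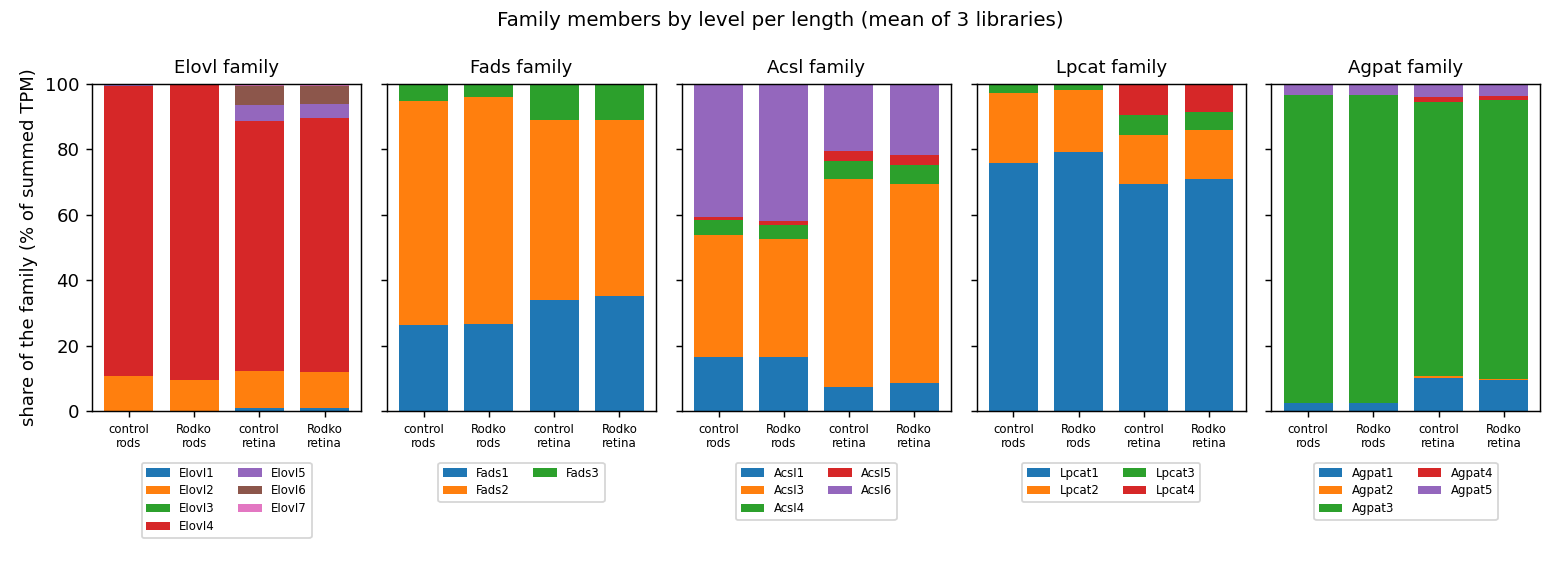
Share of each gene in the summed TPM of its family (vertical axis, percent, stacked from 0 to 100, mean of 3 libraries) in the 4 groups, for the Elovl, Fads, Acsl, Lpcat and Agpat families. Elovl4 fills 88.6% of the Elovl bar in control rods and 76.2% in control retina, and Acsl6 fills 40.8% and 20.6% of the Acsl bars.

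Of 54 other genes of the pathway, in 6 lists, 53 were tested: 22 were higher in rods of control mice, where 23.5% of all genes were, 24 were lower, where 35.5% were, and 7 passed in neither direction, with a median log2 difference of -0.25 beside -0.37 over all genes. In Pkm2_Rodko mice 21 were higher and 23 lower, beside 23.9% and 35.1% of all genes. Of the 12918 genes with 10 reads in every library, 45.8% were higher and 28.0% lower in control mice. The control shares also stand beside the counts of each list below. With scaling by total reads in control mice 11 were higher and 28 lower, beside 8.43% and 49.1% of all genes.

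In elongation and desaturation, 3 were higher and 6 lower. Hacd3, a 3-hydroxyacyl-CoA dehydratase of the elongation cycle, was higher by log2 1.03, as was its relative Hacd2 by 0.67, while Hacd4 was lower (-4.10), as was the desaturase relative Fads3 (-2.77). In peroxisomal chain shortening, where DHA is finished, 5 were higher and 3 lower. Scp2, the peroxisomal thiolase and sterol carrier, was higher by 1.07 and Hsd17b4, the bifunctional enzyme, by 0.73. Abcd2, an importer of very long chain acyl-CoA, was lower (-0.72). By total reads, Hacd2 (0.12, adjusted p = 0.314, limma) and Hsd17b4 (0.18, adjusted p = 0.163) no longer passed.

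Among acyl-CoA synthetases, Acsl1 (1.08) and Slc27a4 (0.46) were higher, and Acsl5 (-1.96) and Acsl3 (-0.84) were among 3 that were lower. Slc27a4 had the opposite sign by total reads (-0.091). Of the acyltransferases, 5 were higher and 8 lower: Lpcat2 (1.44) and Agpat5 (1.27) rose with Lpcat1 and Agpat3 over the retina, and Agpat2 (-4.40) and Lpcat4 (-3.45) were lower.

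In uptake and binding, 2 were higher and 4 lower. Adipor1, a receptor whose loss depletes the mouse retina of DHA, was higher (1.29), as was the fatty acid binding protein Fabp12 (1.35), while the scavenger receptor Cd36 (-3.06) and Fabp3 (-2.99) were lower. Of 6 regulators of lipid genes, 5 were higher and none was lower, beside 23.5% higher and 35.5% lower over all genes. Among genes with 10 reads in every library, 45.8% were higher. The raised regulators included the nuclear receptor Ppard (1.25) and Srebf1 (1.24), the gene of a transcription factor for fatty acid synthesis. By limma with Benjamini-Hochberg adjustment, each of the listed genes named here with a direction passed the test with TMM.

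Loss of Pkm2 in rods was then examined, with the values the authors scaled within each fraction. In rods, 0 of 9 members passed the test between genotypes (limma, adjusted p between 0.932 and 0.979), where 0.0194% of 20658 genes did. By edgeR and DESeq2 it was also 0 of 9, and at an unadjusted p under 0.05 it was 1 of 9, Lpcat1, beside 4.77% of all genes. In retina 0 of 9 passed (adjusted p between 0.947 and 0.974), beside 0.00391% of 25590 genes, with 0 by edgeR and DESeq2 and 0 at an unadjusted p under 0.05, where 4.18% of all genes were. The test of the difference between the rod and retina effects called 0 of 9 by each of the 3 tools, beside 0% of 25584 genes by limma, and 0 at an unadjusted p under 0.05, beside 4.41%.

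Lpcat1 had deposited values of 4881, 4287 and 4727 in control rods and 4964, 5541 and 6224 in Pkm2_Rodko rods. The groups did not overlap, and the 2 closest libraries differed little. The log2 fold change was 0.26 (95% interval 0.056 to 0.47, adjusted p = 0.932, limma, higher in 3 of 3 Pkm2_Rodko libraries). It was the only 1 of 9 members without overlap in rods, where 9.89% of all genes had none. Its share of the Lpcat family was 75.7% ± 0.641 in control rods and 79.3% ± 0.780 in Pkm2_Rodko rods, without overlap (exact permutation test, two-sided, p = 0.1). The value in retina was 0.15 (95% interval -0.028 to 0.33), with overlapping libraries.

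In retina, 2 of 9 members did not overlap between genotypes, where 9.29% of all genes did not. Agpat3 had 29681, 33996 and 32571 in control retina and 36893, 37595 and 34209 in Pkm2_Rodko retina (log2 fold change 0.18, 95% interval -0.000071 to 0.35, adjusted p = 0.947, limma). On the TMM scale of all 12 libraries these groups overlapped, with a control library at 28696 and a Pkm2_Rodko library at 28350 scaled reads. Mfsd2a had 43.8, 36.2 and 34.3 in control retina and 48.5, 56.1 and 53.7 in Pkm2_Rodko retina (log2 fold change 0.46, 95% interval -0.038 to 0.97, adjusted p = 0.947, limma). In the Pkm2_Rodko retina libraries, in the same order, pigment epithelium markers summed to 7287, 9319 and 3223 scaled reads and endothelial markers to 3212, 3723 and 3793, and their part in the Mfsd2a values was not tested.

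The intervals of the other members show how large a difference the data leave possible. Elovl4 differed by log2 0.13 in rods (95% interval -0.060 to 0.32), Elovl2 by -0.030 (-0.21 to 0.15), Acsl6 by 0.082 (-0.12 to 0.28) and Agpat3 by 0.099 (-0.10 to 0.30). Those of the low or variable genes were wider: Fads1 0.048 (-0.25 to 0.35), Fads2 0.063 (-0.51 to 0.64), Elovl5 -0.44 (-1.002 to 0.13) and Mfsd2a 0.36 (-0.75 to 1.47). Elovl5 had 58.9, 62.0 and 49.3 in control rods and 30.4, 53.6 and 43.6 in Pkm2_Rodko rods, with overlap. Its share of the Elovl family was 0.216% ± 0.0115 in control rods and 0.149% ± 0.0335 in Pkm2_Rodko rods, without overlap (exact permutation test, two-sided, p = 0.1). In the same comparison the marker medians of other cell types were also negative: -0.58 for amacrine (9 of 10 markers negative), -0.44 for bipolar (8 of 10), -0.40 for ganglion (10 of 10), -0.39 for endothelial (8 of 10) and -0.35 for Müller glia (12 of 12). They were -0.35 for horizontal cells (3 of 5), -0.11 for pigment epithelium (7 of 10), -0.11 for cones (10 of 12) and -0.089 for microglia (6 of 8). The rod median was 0.058 (2 of 20 negative). None of these markers passed the test, and their part in the Elovl5 value was not tested.

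In retina the remaining members lay between -0.16 (Fads2, 95% interval -0.36 to 0.042) and 0.086 (Elovl4, -0.087 to 0.26). None of the 54 listed pathway genes passed a genotype test by limma, edgeR or DESeq2. At an unadjusted p under 0.05 there were 2 of 52 tested in rods, beside 4.77% of all genes, and 6 of 53 in retina, beside 4.18%.

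**Figure D4:**
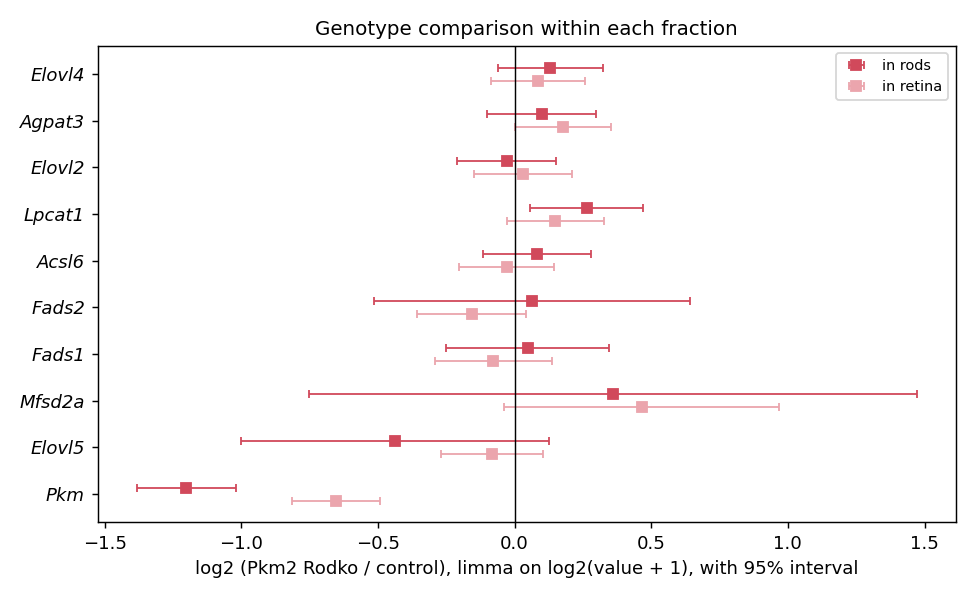
Log2 ratio of Pkm2_Rodko to control for the 9 genes and Pkm (limma on log2(deposited value + 1), squares with 95% intervals, rods in dark red and retina in light red). The 9 genes lie between -0.44 and 0.46 and Pkm lies at -1.20 in rods and -0.65 in retina.

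The genes most like each member were sought by Pearson correlation of log2(scaled reads + 1) over the 12 libraries, which form 2 clusters, rods and retina, that share scaling and depth within a library. The closest to Agpat3 were Cngb1 (r = 0.998) and Prph2 (0.998), a subunit of the rod cyclic-nucleotide-gated channel and a disc rim protein. The closest to Elovl2 were Egflam (0.998) and Rbp3 (0.998), an extracellular matrix gene of the photoreceptor synapse and the retinoid-binding protein of the interphotoreceptor matrix. Those of Elovl4 were Kpna2 (0.999) and Gm10259 (0.999), those of Acsl6 were Sec23b (0.998) and Nol11 (0.997), and those of Lpcat1 were D16Ertd472e (0.995) and Lonp1 (0.995). Among the lowered members, Elovl5 was closest to Gdf11 (0.998) and Cacna2d1 (0.997), Fads1 to Tmem25 (0.996) and Rilpl1 (0.995), Fads2 to Dusp26 (0.983) and E430024I08Rik (0.980), and Mfsd2a to Ddit4l (0.985) and Gm43377 (0.984).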

How the data were processed

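RNA from Rod-TRAP and retina was isolated with Trizol and a column kit. The submitters' processing notes name CASAVA 1.8.2, HISAT2, DESeq2, edgeR and the build GRCm39; how reads were counted and whether by strand are not given in the sources used here, so reads of overlapping or antisense genes could be shared. The authors deposited 1 table of signal values per gene: reads over a size factor (median of ratios, computed once within the 6 rod and once within the 6 retina libraries), rounded to 1 decimal. Dividing by each library's step gave whole reads for 99.98% of positive values (tolerance 0.051 on the deposited scale); no per-sample column was left out.

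Reads were scaled by TMM over the 12 libraries, and rods were compared with retina by limma 3.58.1 (R 4.3.3) with a variance trend on log2(scaled reads + 1) and 4 group means. Genotypes were compared within each fraction on log2(deposited value + 1). Genes with a mean of at least 1 in 1 group were tested, and p-values were adjusted over all of them by the Benjamini-Hochberg method at 0.05. Alternatives were edgeR 4.0.16 and DESeq2 1.42.0, run on those reads, other scalings, filters and a pseudocount of 0.1. Levels per length used GENCODE vM21 (GRCm38), which gave a length for 96.3% of the genes tested. The fits were tested on simulated data with no broad difference between rods and retina, so the scaling between them was not tested there. Replicates differed by more than sampling noise (chi-square per gene 7.16 to 27.1).

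Rods and retina libraries of the same genotype and number had deviations from the group means that correlated in all 6 pairs (0.145 to 0.344). For other numbers the correlations were -0.299 to -0.0233. Deviations cancel within a group, so positive values for the same number bring negative ones for other numbers. The main fits, with the standard errors, intervals and p-values given, did not use this pairing. It entered only as an alternative. The fit with this replicate block changed no member's call. Genes named are the 9 members, Pkm, the 2 most raised and 2 most lowered genes past the threshold in each pathway list, and the 2 genes most like each member, except 1 pathway gene that is not reported here; Elovl3 and the cell type markers were named in addition. The members and lists were chosen with earlier results of these data known.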

Additional observations from a re-analysis of the deposited data

How the results depend on the processing

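All 9 members kept their direction and their call between rods and retina, in both genotypes, under each alternative that gave a value: 376 values over RLE and total-read scaling, deposited values, the replicate block, edgeR, DESeq2, other filters, a pseudocount of 0.1, and each library left out. Mfsd2a gave no value where 10 reads in every library were required. Those values set no minimum fold change. With an absolute log2 fold change of at least 1 also required, Acsl6 in control mice (0.92) was no longer called. No member passed a genotype test under any alternative. Signal is limited by 3 libraries per group and, for Mfsd2a and Elovl5 in rods, by few reads. With the length of the longest transcript (family shares: chosen after seeing the data), 19 of 36 levels and 17 of 32 family shares moved by more than 1 SD.

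The 22 other pathway genes higher in control rods became 11 by total reads and 11 with deposited values, and the 21 in Pkm2_Rodko rods became 10 and 9; the lower counts in control mice became 28 and 30. Slc27a4 turned to -0.091 by total reads and -0.14 with deposited values. The cause was not tested. The genotype value of Fads2 in rods turned to -0.0072 by edgeR, and the difference between fractions for Mfsd2a to 0.050 by edgeR and 0.064 by DESeq2. With 1 library left out, the rod values ranged from -0.079 to 0.029 for Elovl2, -0.022 to 0.15 for Fads1, -0.18 to 0.43 for Fads2, -0.0059 to 0.15 for Acsl6 and -0.024 to 0.64 for Mfsd2a. The retina values ranged from -0.014 to 0.092 for Elovl2 and -0.087 to 0.033 for Acsl6, and the differences between fractions from -0.0053 to 0.13 for Elovl4 and -0.48 to 0.18 for Mfsd2a. The call of Pkm in retina (adjusted p = 0.0219, limma) was lost without control replicate 1 or 3, or without Pkm2_Rodko replicate 1, 2 or 3 (adjusted p up to 0.949), and with 10 reads required in every library.

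Deviations of control and Pkm2_Rodko libraries of the same number correlated at -0.227 to 0.0713, and those of other numbers at -0.265 to 0.297. Whether libraries of the same number share more than the number was not tested. With this replicate block 0 of 9 members passed in rods and 0 in retina, and over all genes in rods 4 were higher and 4 lower; the Pkm call in retina was lost (adjusted p = 0.157).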

Other observations

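Fads2 was higher in both rod libraries numbered 2 than in the other 4 rod libraries. The deposited values were 372.9, 773.3 and 345.1 in control rods and 381.2, 676.4 and 440.4 in Pkm2_Rodko rods. The lower of the libraries numbered 2 was above the highest of the others by 0.62 on the log2 scale, and of 10840 genes with a mean of at least 50 in rods, 1 had a larger gap. In retina the libraries numbered 2 were not set apart (1815.6, 1808.6 and 1496.0 in controls, 1589.8, 1573.6 and 1416.6 in Pkm2_Rodko mice). Fads1, its neighbour in the pathway, was highest in library 2 of control rods (299.1, against 235.8 and 246.5) and lowest in library 2 of Pkm2_Rodko rods (250.8, against 259.5 and 295.5). This was noticed after the values were seen, and its cause was not tested.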
